A study of Mus musculus with 2 samples.

Results

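The genes described here are 10 receptors for inflammatory cytokines and danger signals, chosen by symbol from the 32285 genes of the matrices: Il1r1, Tnfrsf1a, Tnfrsf1b, Tlr2, Tlr3, Tlr4, Ifngr1, Ifngr2, Ifnar1 and Ifnar2. Each symbol occurred once, and all 10 had counts in both libraries. They were measured in lung cells of wild-type C57BL/6 mice, adult males per the study's methods, 6 h after a tail vein injection of saline (control) or of 400000 B16-F10 cells, a mouse melanoma line of the same strain that carried a green tracker dye. Per the labels, 2 mice received each treatment, and their cells were pooled. Pecam1-positive, Ptprc-negative endothelial cells (ECs) were sorted and captured for single-cell RNA sequencing, and dyed melanoma cells were added to the library of injected mice. Each group was thus 1 library with no replicate, so no test was possible. Every interval given is a 95% counting interval and says nothing of the spread between mice. In sums over a class, more RNA per cell and more cells with the RNA cannot be told apart.

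IL1R1 is the signalling receptor for interleukin-1, and TNFRSF1A and TNFRSF1B are the receptors for tumour necrosis factor. TLR2 and TLR4 recognise bacterial products and molecules of damaged tissue at the cell surface, and TLR3 recognises double-stranded RNA in endosomes. In ECs these receptors lead through NF-kB and related routes to adhesion molecules and chemokines. IFNGR1 and IFNGR2 form the receptor for interferon gamma, and IFNAR1 and IFNAR2 that for type I interferons. Both pairs signal through Janus kinases and STAT proteins.

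All 10 are protein-coding genes. In GENCODE M21 on GRCm38, Il1r1 lay at chr1:40225080-40317257 on the plus strand, Tnfrsf1a at chr6:125349362-125362484 on the plus strand and Tnfrsf1b at chr4:145213463-145246870 on the minus strand. Tlr2 lay at chr3:83836272-83841767 and Tlr3 at chr8:45395665-45411080, both on the minus strand, and Tlr4 at chr4:66827584-66930284 on the plus strand. Ifngr1 lay at chr10:19591949-19610229. The other interferon receptor genes lay on chromosome 16 within 192841 bases of each other, Ifnar2 at chr16:91372783-91405589, Ifnar1 at chr16:91485238-91507441 and Ifngr2 at chr16:91547072-91565623, all on the plus strand. Il10rb, a chain of the interleukin-10 receptor, is annotated between Ifnar2 and Ifnar1. Il1r1 and Ifnar2 each overlap another annotated gene on the same strand, Gm38070 and Gm21970, so reads there could be split or shared.

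Promoter sequences from RefSeq on GRCm38.p6 were held for 9 of the 10 genes, and the 250 bases before each start were searched on both strands. Of 32841 promoter windows of this length, 3.9% held an NF-kB motif, 7.02% the interferon gamma-activated site GAS (TTCNNNGAA), 2.98% the interferon-stimulated element ISRE, 6.75% AP-1 (TGANTCA) and 32.75% a GC box (GGGCGG). An NF-kB motif was found before Il1r1, Tlr2, Tlr3 and Ifngr2, GAS before Tnfrsf1a, Tnfrsf1b and Ifnar2, ISRE before Tnfrsf1b, a GC box before 6 genes and AP-1 before none. A match is only a run of letters and says nothing of binding. The stretches below belong to the genes that were higher in the B16-F10 library, with Ifngr2 as one that was not, and capitals mark NF-kB, GAS and ISRE matches. Il1r1 has 2 annotated starts, and only the window of the downstream one, which lies within the gene, held the NF-kB motif. The capitals of Tlr2 hold overlapping NF-kB matches. Stretches of Tlr2 and Tnfrsf1a that lie in annotated exons are left out, and with them the GAS match of Tnfrsf1a. The NF-kB match of Tlr3, 211 to 202 bases before its start, also lies in an annotated exon, and Tlr3 is not shown.
Il1r1 upstream start, chr1:40224830-40225079, plus strand: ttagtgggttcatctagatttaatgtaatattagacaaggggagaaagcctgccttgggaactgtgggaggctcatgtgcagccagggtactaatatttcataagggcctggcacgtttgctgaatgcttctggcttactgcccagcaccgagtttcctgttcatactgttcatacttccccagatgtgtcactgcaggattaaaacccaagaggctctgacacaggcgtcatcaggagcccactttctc
Il1r1 downstream start, chr1:40266336-40266585, plus strand: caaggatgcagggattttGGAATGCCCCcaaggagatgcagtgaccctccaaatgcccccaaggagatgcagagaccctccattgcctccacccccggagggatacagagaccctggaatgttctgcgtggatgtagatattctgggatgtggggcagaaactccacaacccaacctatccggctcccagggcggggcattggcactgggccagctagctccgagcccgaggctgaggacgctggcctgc
Tlr2, chr3:83841768-83841858, minus strand: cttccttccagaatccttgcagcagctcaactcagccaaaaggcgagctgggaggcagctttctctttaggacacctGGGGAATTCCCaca
Tnfrsf1a, chr6:125349509-125349722, plus strand: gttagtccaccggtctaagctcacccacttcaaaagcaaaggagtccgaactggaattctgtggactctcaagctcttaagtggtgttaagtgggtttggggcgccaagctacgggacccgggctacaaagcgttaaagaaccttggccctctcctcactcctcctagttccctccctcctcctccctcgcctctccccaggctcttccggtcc
Tnfrsf1b, chr4:145246871-145247120, minus strand: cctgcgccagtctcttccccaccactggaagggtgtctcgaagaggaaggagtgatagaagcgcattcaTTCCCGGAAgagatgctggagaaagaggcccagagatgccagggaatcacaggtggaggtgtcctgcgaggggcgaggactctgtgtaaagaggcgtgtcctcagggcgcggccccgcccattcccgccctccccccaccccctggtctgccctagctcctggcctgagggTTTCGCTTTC
Ifngr2, chr16:91546809-91547058, plus strand: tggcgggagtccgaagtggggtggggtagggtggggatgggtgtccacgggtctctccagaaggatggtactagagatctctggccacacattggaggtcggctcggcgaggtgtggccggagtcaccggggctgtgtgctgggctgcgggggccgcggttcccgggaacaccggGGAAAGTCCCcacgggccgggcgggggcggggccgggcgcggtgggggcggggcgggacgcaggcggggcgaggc

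Counts were of unique molecular identifiers (UMIs), each marking 1 captured RNA molecule. Depth was 85794655 UMIs for control and 104978816 for B16-F10 lungs. In control lungs 7830 cells, and in B16-F10 lungs 7767, passed the study's limits of 1000 to 5000 genes and under 20% mitochondrial UMIs after doublets were removed. Among barcodes with at least 300 genes, 36 were shared by the libraries. Clusters were named from markers as general capillary (gCap-like, 4820 control and 4451 B16-F10 cells), aerocyte capillary (aCap-like, 1450 and 968), artery-like (181 and 131), vein-like (305 and 309) and lymphatic (LEC-like, 57 and 51) ECs. Of 8 endothelial markers, each was detected in at least 77.2% of the cells in every class and library except aCap-like ECs, where the least detected marker was in 27.2% and 43.3% of cells. Of the 8 markers that named each class, 6 to 8 were higher there than in the other cells. Ptprc, the leukocyte protein sorted against, stood at 2.14 CPM (UMIs per 1000000 UMIs) or less in every class. In control and B16-F10 cells it stood at 0.305 and 1.34 CPM in gCap-like, 0.152 and 0.644 in aCap-like and 1.45 and 1.63 in artery-like ECs. In vein-like ECs it stood at 0.631 and 0.579 CPM, and in LEC-like ECs at 2.14 and 0.0.

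Levels are UMIs of a gene per 1000000 UMIs (CPM) of all cells of a class in 1 library. They compare a gene with itself across classes and libraries, not 1 gene with another. The receptors differed in where they were found (the plot of levels by vessel class). In control lungs Il1r1 was highest in artery-like (94.7 CPM, 79.2 to 112) and vein-like ECs (94.4, 84.0 to 106), whose intervals overlapped, and lower in aCap-like (41.1, 37.7 to 44.7), gCap-like (31.4, 29.6 to 33.3) and LEC-like ECs (10.7, 3.47 to 24.9). Tlr4 had the same order of classes, with 71.6 CPM (58.2 to 87.2) in artery-like, 68.2 (59.4 to 77.9) in vein-like, 41.7 (38.3 to 45.4) in aCap-like, 23.8 (22.2 to 25.4) in gCap-like and 6.41 (1.32 to 18.7) in LEC-like ECs. Both genes were thus lowest in lymphatic cells, where they rested on only 5 and 3 UMIs.

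Tnfrsf1b, the receptor through which membrane-bound tumour necrosis factor acts best, was higher in large vessels than in capillaries. Its control level was 18.1 CPM (11.7 to 26.7) in artery-like and 13.3 (9.55 to 17.9) in vein-like ECs, against 1.64 (1.24 to 2.11) in gCap-like and 0.229 (0.0471 to 0.668) in aCap-like ECs. Tnfrsf1a, by contrast, was found in all classes, from 105 CPM (77.4 to 138) in LEC-like ECs to 251 (246 to 256) in gCap-like and 253 (236 to 272) in vein-like ECs, which did not differ beyond counting error. Tlr2 was low in every class, with gCap-like ECs at 2.44 CPM, aCap-like at 2.51, artery-like at 4.34, vein-like at 11.7 and LEC-like at 12.8. Vein-like and LEC-like ECs stood above both capillary classes beyond counting error, the latter from only 6 UMIs.

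The chains of 1 interferon receptor were not distributed alike. Ifngr2 was highest in aCap-like ECs (166 CPM, 159 to 173), lower in gCap-like (110, 106 to 113) and vein-like ECs (74.5, 65.3 to 84.6), and lowest in artery-like ECs (34.7, 25.6 to 46.0), which overlapped LEC-like ECs (42.7, 26.1 to 66.0). Ifngr1, the ligand-binding chain of that receptor, was lowest in aCap-like ECs (103 CPM, 97.3 to 108) and highest in gCap-like ECs (211, 206 to 215), where it did not differ beyond counting error from LEC-like ECs (205, 166 to 250). Artery-like (152, 132 to 174) and vein-like ECs (143, 130 to 157) lay between. So aCap-like ECs had the most of one chain and the least of the other.

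Ifnar2, the chain that binds type I interferon most tightly, was also lowest in aCap-like ECs (111 CPM, 105 to 116) and stood at 204 to 243 CPM in the other classes. Ifnar1 was close to even, from 68.7 CPM in artery-like to 87.5 in aCap-like ECs, a 1.27-fold range in which each neighbouring pair of classes overlapped. Tlr3 also ranged little among blood vessel classes, from 48.5 CPM in artery-like to 58.6 in aCap-like ECs, with overlapping intervals.

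**Figure D1:**
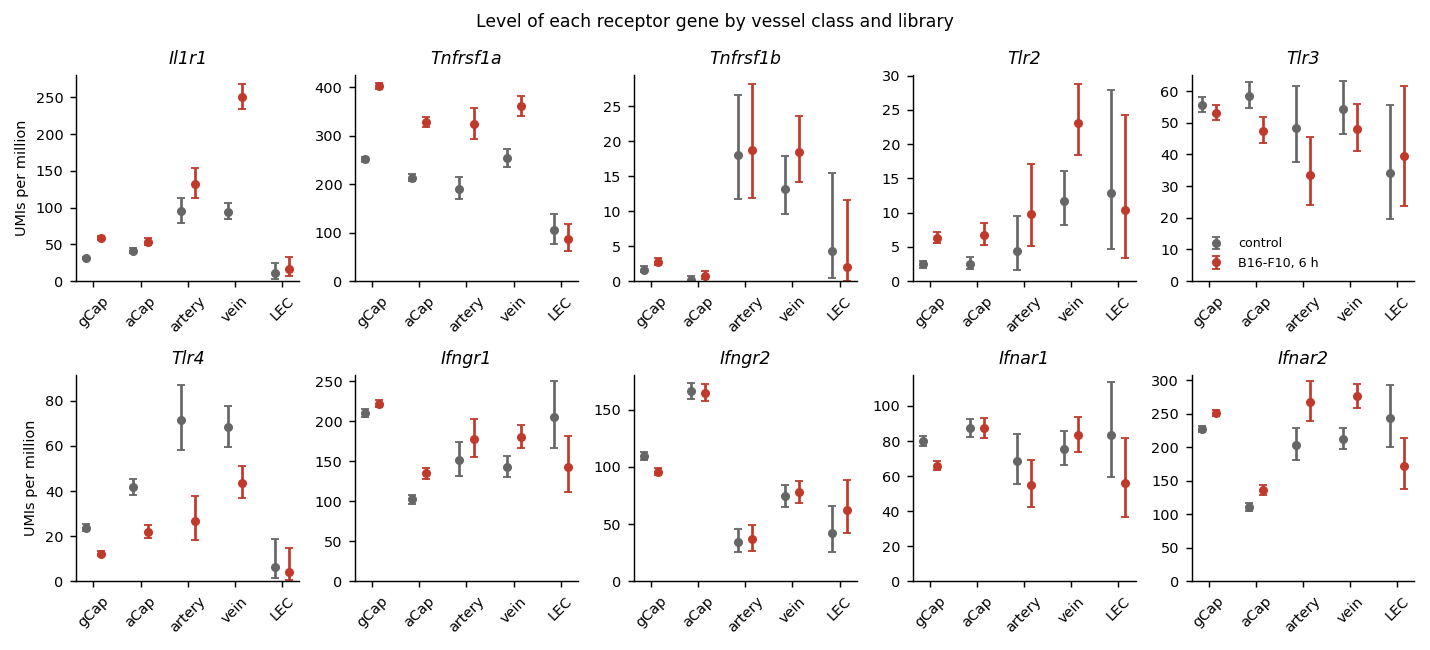
Level of each receptor gene (CPM, vertical axes from 0, own scale per gene) in the 5 vessel classes of the control library (grey) and the B16-F10 library (red), with exact Poisson 95% intervals. Tnfrsf1b sits below 3 CPM in both capillary classes and at 13.3 CPM or more in artery-like and vein-like ECs, and Ifngr2 is highest in aCap-like ECs, where Ifngr1 and Ifnar2 are lowest.

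The study asked how lung ECs change in the first hours after melanoma cells arrive. A gene was called higher or lower where its log2 ratio of B16-F10 over control was at least 0.5 in size, its interval left out 0 and it had at least 50 UMIs over both libraries. In gCap-like ECs, 4 of the 10 receptors were called higher (Il1r1, Tnfrsf1a, Tnfrsf1b and Tlr2), against 9.04% of 13234 genes counted, and 1 was called lower (Tlr4), against 11.6%. No interferon receptor chain was called. The median ratio of the 10 was 0.11, beside -0.04 for all genes.

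Il1r1 stood at 31.4 CPM (29.6 to 33.3) in control and 58.8 CPM (56.4 to 61.2) in B16-F10 gCap-like ECs, from 1133 and 2287 UMIs. The intervals lay far apart, and the ratio was 1.87-fold (log2 0.90, 0.80 to 1.01). Tnfrsf1a, which carries the death domain that TNFRSF1B lacks, stood at 251 CPM (246 to 256) and 402.5 CPM (396 to 409), 1.604-fold higher in the B16-F10 library (log2 0.68, 0.64 to 0.72). Tnfrsf1a is also among the study's own markers of reactive capillaries (rCap), which were chosen on data that include these libraries, so its direction is not independent evidence. With each cell thinned to 2000 UMIs, 37.2% of control and 52.4% of B16-F10 gCap-like ECs held a Tnfrsf1a UMI. Without thinning, at median depths of 7306 and 8443 UMIs, the shares were 76.7% and 90.4%. In melanoma-like cells, with a median of 8200 UMIs, the thinned share was 5.26% of 76 cells.

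Tlr2 and Tnfrsf1b were called higher from low levels. Tlr2 stood at 2.44 CPM (1.96 to 3.01) and 6.32 CPM (5.56 to 7.16), from 88 and 246 UMIs, a ratio of 2.59-fold (log2 1.37, 1.02 to 1.74). Tnfrsf1b stood at 1.64 CPM (1.24 to 2.11) and 2.80 CPM (2.30 to 3.38), from 59 and 109 UMIs (log2 0.78, 0.31 to 1.26). Some leukocytes passed the sort. In macrophage/monocyte-like cells of the B16-F10 library Tlr2 stood at 105 CPM and Tnfrsf1b at 162 CPM, over 37 cells. Beside these ratios, the 8 macrophage and monocyte markers summed to 20.4 CPM in control and 34.2 CPM in B16-F10 gCap-like ECs, with 1 of 8 at 0 in control and none in B16-F10. The 8 neutrophil markers summed to 3.96 and 9.30 CPM, with 2 and 0 at 0. The rise of the neutrophil sum lay in S100a8 and S100a9, whose values are given below. Over the 2772 control and 1566 B16-F10 gCap-like ECs without a UMI of any macrophage/monocyte, neutrophil, platelet, mural or melanoma marker, the log2 ratio of Tlr2 was 1.45 (0.91 to 2.00).

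Tlr4 moved the other way. It stood at 23.8 CPM (22.2 to 25.4) in control and 12.4 CPM (11.3 to 13.5) in B16-F10 gCap-like ECs, from 857 and 481 UMIs, which was 1.92-fold lower after injection (log2 -0.94, -1.11 to -0.78). Of all genes counted in these cells, 96.8% had a higher ratio. Tlr3 did not differ beyond counting error, at 55.7 and 53.1 CPM (log2 -0.07, -0.16 to 0.02).

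The interferon receptor chains moved little. Ifngr1 stood at 211 and 222 CPM (log2 0.08, 0.03 to 0.12) and Ifnar2 at 227 and 251 CPM (log2 0.14, 0.10 to 0.19), both slightly higher in the B16-F10 library beyond counting error. Their partner chains were slightly lower, Ifngr2 at 110 and 95.9 CPM (log2 -0.20, -0.26 to -0.13) and Ifnar1 at 80.1 and 66.0 CPM (log2 -0.28, -0.36 to -0.20). None of these reached the size of 0.5.

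**Figure D2:**
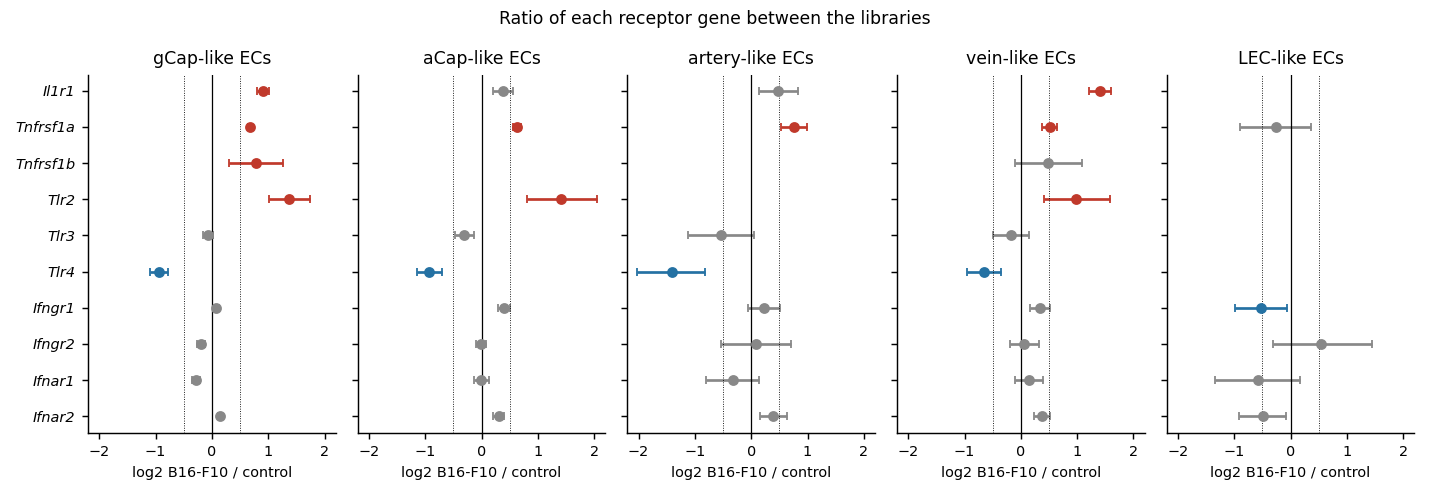
Log2 ratio of B16-F10 over control (horizontal axis) for each receptor gene in 5 vessel classes, with exact conditional binomial 95% intervals. Red points are called higher, blue lower and grey neither, dotted lines mark 0.5 in either direction, and genes under 50 UMIs in a class are not drawn. Tlr4 is blue in the 4 blood vessel classes, and Tnfrsf1a is red in the same 4.

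Across the other blood vessel classes the pattern held for Tnfrsf1a and Tlr4. In aCap-like ECs Tnfrsf1a stood at 214 and 328 CPM (log2 0.62, 0.55 to 0.69), Tlr2 at 2.51 and 6.72 CPM (log2 1.42, 0.81 to 2.06) and Tlr4 at 41.7 and 21.99 CPM (log2 -0.92, -1.15 to -0.70). There 2 of 9 counted receptors were called higher, against 8.53% of 11107 genes, and 1 lower, against 9.8%. In artery-like ECs Tnfrsf1a stood at 191 and 324 CPM (log2 0.76, 0.53 to 0.99) and Tlr4 at 71.6 and 26.9 CPM (log2 -1.41, -2.03 to -0.83), 1 of 8 in each direction, against 8.91% and 8.26% of 7107 genes. With cells thinned to 2000 UMIs the intervals of aCap-like Tlr2 (log2 0.57, -1.54 to 2.69) and artery-like Tlr4 (log2 -1.13, -2.61 to 0.16) included 0. In B16-F10 lungs the Tlr4 interval of artery-like ECs (18.5 to 37.8 CPM) overlapped that of aCap-like ECs (19.3 to 24.96), which it did not in control. The aCap-like ECs were made up differently, since a cluster led by Tmeff2 held 34.7% of them in control and 6.71% in the B16-F10 library.

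In vein-like ECs, counted over all their cells, Il1r1 stood at 94.4 CPM (84.0 to 106) in control and 251 CPM (234 to 268) in B16-F10 vein-like ECs, from 299 and 866 UMIs, 2.65-fold higher (log2 1.41, 1.22 to 1.603). Over all cells its log2 ratio exceeded that of gCap-like ECs by 0.50 (0.29 to 0.72), while those of aCap-like and artery-like ECs fell short of it by 0.52 (difference -0.52, -0.72 to -0.32) and 0.42 (-0.42, -0.77 to -0.08). After thinning to 2000 UMIs, 14.1% of control and 36.9% of B16-F10 vein-like ECs held an Il1r1 UMI. In the 77 melanoma-like cells of that library, with a median of 8200 UMIs, no Il1r1 UMI was found, which by an exact binomial interval allows a UMI in up to 4.74% of the 76 thinned cells, a limit on cells with a UMI at that depth and not on cells expressing the gene. Without thinning, at medians of 9980 and 11115 UMIs, the vein-like shares were 52.1% and 77.3%. Summed macrophage/monocyte markers were 15.8 and 36.5 CPM in vein-like ECs (3 and 2 of 8 at 0), neutrophil markers 27.5 and 39.6 CPM (5 and 3 at 0) and erythroid markers 526 and 3324 CPM (1 at 0 in each). A subset of 111 control and 63 B16-F10 vein-like cells held no macrophage/monocyte, neutrophil, platelet, mural or melanoma marker UMI. Cells with erythroid marker UMIs were not left out of it. In this subset the Il1r1 log2 ratio was 0.75 (0.38 to 1.11). In the gCap-like ECs chosen in that way it was 0.92 (0.77 to 1.07), so the excess of vein-like over gCap-like ECs was not seen there.

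In vein-like ECs Tlr2 was also called higher, at 11.7 and 23.1 CPM (log2 0.99, 0.41 to 1.59), and Tnfrsf1a at 253 and 361 CPM (log2 0.51, 0.38 to 0.64). Tnfrsf1a fell below the size limit there under 4 alternatives (0.36 to 0.45). Tlr4 was called lower, at 68.2 and 43.4 CPM (log2 -0.65, -0.96 to -0.34), but with cells thinned to 2000 UMIs the ratio was -0.14 (-0.86 to 0.57), and that of Tlr2 was 0.98 (-0.70 to 2.88). In all, 3 of 10 receptors were called higher, against 5.8% of 9429 genes, and 1 lower, against 5.98%. Tnfrsf1b, which was highest in large vessels, stood at 13.3 and 18.5 CPM in vein-like ECs (log2 0.48, -0.10 to 1.08) and at 18.1 and 18.8 CPM in artery-like ECs, from 25 and 23 UMIs, differences within counting error.

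Over all cells, ratios of Ifngr1 were higher in aCap-like and vein-like than in gCap-like ECs, by 0.32 (0.20 to 0.43) and 0.26 (0.08 to 0.44) on the log2 scale. Ifngr1 stood at 103 and 135 CPM in aCap-like (log2 0.39, 0.29 to 0.50) and at 143 and 181 CPM in vein-like ECs (log2 0.34, 0.16 to 0.51). Without the cluster led by Lalba and Adamts9, described below, the gCap-like ratio was 0.18 (0.13 to 0.23). That lay inside the vein-like interval and below the aCap-like one. The log2 ratio of Ifnar2 was 0.30 (0.20 to 0.41) for aCap-like, 0.39 (0.16 to 0.63) for artery-like and 0.37 (0.23 to 0.52) for vein-like ECs. Ifngr2 stood within counting error of its control level in aCap-like, artery-like and vein-like ECs, and so did Ifnar1.

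LEC-like ECs were few, and only 5 receptors reached 50 UMIs there. None was called higher, against 7.58% of 3932 genes. Ifngr1 alone was called lower, against 6.87%, at 205 CPM (166 to 250) in control and 143 CPM (112 to 181) in B16-F10 cells (log2 -0.52, -0.98 to -0.05). That call was lost under 4 alternatives, with ratios from -0.50 to -0.31. Ifnar2 stood at 243 and 172 CPM (log2 -0.50, -0.92 to -0.08) and Tnfrsf1a at 105 and 87.3 CPM (log2 -0.26, -0.89 to 0.36).

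Free RNA in the droplets can add UMIs to every class. The share of a class's UMIs that it could supply was estimated from epithelial, erythroid and neutrophil markers at 1.08% to 6.81% over the blood and lymphatic classes, the highest in B16-F10 vein-like ECs. The marker sets disagreed there. Erythroid markers stood at 526 CPM in control and 3324 CPM in B16-F10 vein-like ECs, but epithelial markers at 215 and 202.5 CPM. At the share of each class it would supply 2.58 of the 251 CPM of Il1r1 in those cells, 12.2 of the 402.5 CPM of Tnfrsf1a in B16-F10 gCap-like ECs, and 0.624 of the 23.8 and 0.547 of the 12.4 CPM of Tlr4. With it subtracted, the 5 receptors called in gCap-like ECs stayed past the size limit in the same direction. Melanoma-like cells of the same library held 0 UMIs of Il1r1 and of Tnfrsf1b and 2 of Ifngr1 among 77 cells, but 70 UMIs of Ifnar2 (85.3 CPM) and 32 of Ifngr2 (39.0 CPM).

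The gCap-like ECs were made up differently in the libraries. The cluster led by Lalba and Adamts9 held 76 control cells (1.58% of gCap-like ECs) and 1036 B16-F10 cells (23.3%). The receptors were left out when cells were clustered. In the B16-F10 library this cluster held 1.76-fold more Il1r1 than the other gCap-like ECs (86.9 against 49.4 CPM, log2 0.81, 0.69 to 0.94) and 1.67-fold more Tnfrsf1a (576.5 against 345 CPM, log2 0.74, 0.69 to 0.79). It held 1.76-fold less Ifnar1 (42.0 against 73.9 CPM, log2 -0.82, -0.97 to -0.66), 1.40-fold less Ifngr1 (171 against 239 CPM) and 1.31-fold less Ifngr2 (77.7 against 102 CPM). Tlr4, at 12.1 against 12.5 CPM, did not differ beyond counting error, so the lower Tlr4 was shared by both sets of cells.

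Without the Lalba cluster the Il1r1 ratio in gCap-like ECs was 0.67 (0.56 to 0.78) and that of Tnfrsf1a 0.47 (0.43 to 0.51), below the size limit. The ratio was also taken within each of the 7 gCap-like clusters with at least 50 cells per library (the plot by cluster). Il1r1 was above 0 in 7 of 7, from 0.51 to 0.88, with 6 intervals leaving out 0. Tnfrsf1a was above 0 in 7 of 7 with all 7 intervals leaving out 0, from 0.39 to 0.89. Tlr4 was below 0 in 6 of 7, with 5 intervals leaving out 0, and the cluster led by Esm1 was the exception at 0.19. Tlr2 was above 0 in 6 of 7, with 5 intervals leaving out 0, and was at -0.84 in the other. Tnfrsf1b held less well, above 0 in 6 of 7 but with only 2 of those intervals leaving out 0. Its interval lay below 0 in the Esm1 cluster, from 10 control and 0 B16-F10 UMIs. Of the interferon receptor chains, Ifngr2 and Ifnar1 were each below 0 in 6 of 7, with only 1 interval leaving out 0. Ifngr1 was above 0 in 6 of 7 and Ifnar2 in 5 of 7, each with 4 intervals leaving out 0.

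**Figure D3:**
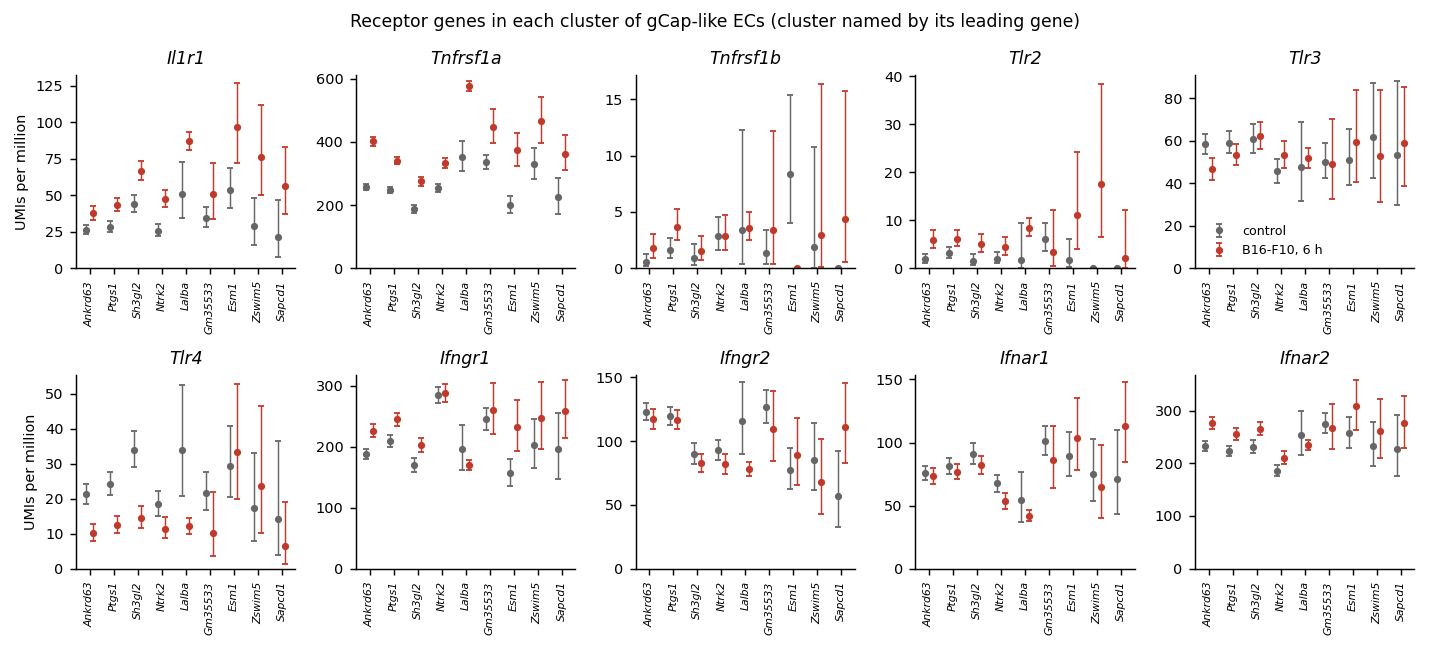
Level of each receptor gene (CPM) in the clusters of gCap-like ECs, each named by its leading gene, in the control (grey) and B16-F10 (red) libraries, with Poisson 95% intervals (a count of 0 is drawn without one). Tnfrsf1a is highest in B16-F10 cells of the Lalba cluster (576.5 CPM), where Ifnar1 is lowest (42.0 CPM).

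The gCap-like ECs were also described along a score of the study's rCap markers, which were chosen on data that include these libraries. The Lalba cluster has the rCap markers Inhbb and Pim3 among its leading genes. The score is therefore not independent of that cluster. Cells of each library were thinned to 2000 UMIs and ranked into 4 equal groups by their summed UMIs of 43 rCap genes, leaving out the receptors, the study's interferon list and Kit. Scores ran from 2 to 68 in control and from 7 to 117 in B16-F10 cells, so a group does not span the same scores in both. In B16-F10 gCap-like ECs, Il1r1 stood at 34.4 CPM (27.1 to 43.0) in the lowest score group and 75.6 CPM (64.5 to 87.9) in the highest, 2.199-fold more. In control cells it stood at 35.7 CPM (28.5 to 44.2) and 31.5 CPM (24.8 to 39.5), with no difference beyond counting error. The lowest B16-F10 score group thus lay within the range of the control score groups (23.5 to 35.7 CPM).

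Tnfrsf1a was graded in both libraries, from 190 to 323 CPM in control (1.69-fold) and from 287 to 592 CPM in B16-F10 cells (2.06-fold), and was above the control level in all 4 score groups. It is itself an rCap marker of the study, so its grading along this score is not independent evidence. Ifnar1 was even across control score groups, between 73.6 and 78.6 CPM, and was lower along the score in B16-F10 cells, at 85.4, 78.7, 57.9 and 40.7 CPM from the lowest to the highest score group (log2 of highest over lowest -1.07, -1.45 to -0.70). Ifngr1 was higher in the highest score group of control cells (log2 0.33, 0.15 to 0.52) and lower in that of B16-F10 cells (-0.27, -0.46 to -0.07). Tlr4 was lower in the highest score group of control cells (log2 -0.83, -1.39 to -0.29) and at 10.9 to 16.3 CPM in all B16-F10 score groups.

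**Figure D4:**
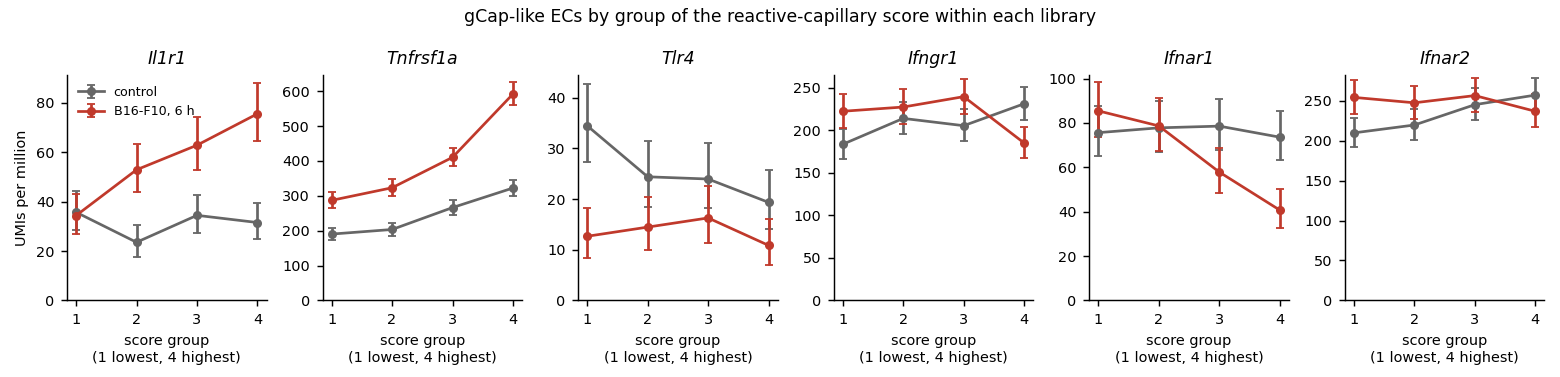
Level of 6 receptor genes (CPM, axes from 0) in gCap-like ECs by rCap score group (lowest to highest) within the control (grey) and B16-F10 (red) libraries, cells thinned to 2000 UMIs, with Poisson 95% intervals. Il1r1 goes from 34.4 to 75.6 CPM in red and stays between 23.5 and 35.7 CPM in grey, and Ifnar1 goes from 85.4 to 40.7 CPM in red.

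ECs that met no vessel class differed too. A cluster with Csf2 and Sox9 among its leading genes held 305 B16-F10 and 7 control cells. In the B16-F10 library it held 6.11-fold less Tlr3 than gCap-like ECs (8.69 against 53.1 CPM, log2 -2.61, -3.23 to -2.06), 2.55-fold less Tnfrsf1a (158 against 402.5 CPM), 2.25-fold less Il1r1 (26.1 against 58.8 CPM) and 6.20-fold more Tnfrsf1b (17.4 against 2.80 CPM). A cluster with Fabp4 and Rbp7 among its leading genes (173 control and 35 B16-F10 cells) held, in the control library, 1.72-fold more Ifngr1 than gCap-like ECs (362 against 211 CPM, log2 0.78, 0.62 to 0.93) and 3.99-fold less Ifngr2 (27.5 against 110 CPM, log2 -2.00, -2.60 to -1.45).

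The genes around the receptors were described in gCap-like ECs by 12 lists (the plot by list). The share to set beside each list is that of all 13234 genes counted there, 9.04% called higher and 11.6% lower. Of the ligands, 3 of 13 reached 50 UMIs. The alarmins S100a8 and S100a9 were called higher, from 0.360 to 2.96 CPM (log2 3.04) and from 0.249 to 3.21 CPM (log2 3.69). Both are abundant neutrophil genes and are themselves on the list of neutrophil markers summed above. The rise of that sum in gCap-like ECs lay in these genes, so it is not separate evidence. The estimate of free RNA was 0.318 CPM for each in control and 3.78 and 4.23 CPM in B16-F10 gCap-like ECs, more than the measured B16-F10 levels. Both genes are among the neutrophil markers that help set this estimate, so it cannot tell whether the ECs expressed them. Expression by the ECs was not tested, and these calls are not read as such. Hmgb1, a nuclear protein released from damaged cells, stood at 725 and 640 CPM (log2 -0.18). For Tnf, control gCap-like ECs held 0 UMIs and those of the B16-F10 library 11, for Il1b 2 and 30, for Ifng 0 and 1, and for Ifnb1 0 in both. Of the 0.771 CPM of Il1b in the B16-F10 library free RNA could supply 0.675, and of the 0.283 CPM of Tnf 0.0536.

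Partners of the receptors did not all move with them. Il1rap, the accessory chain that IL1R1 needs to signal, was called lower, from 24.9 to 15.99 CPM (log2 -0.64, -0.79 to -0.49), while Il1r1 was higher. Ly96, the TLR4 partner MD-2, stood at 31.5 and 30.5 CPM (log2 -0.05, -0.17 to 0.07) and Cd14 at 2.36 and 2.06 CPM. Lbp, which carries lipopolysaccharide to CD14, was called higher, from 57.8 to 98.95 CPM (log2 0.78, 0.70 to 0.85), and so was Il18bp, a soluble inhibitor of interleukin-18, from 12.9 to 26.0 CPM (log2 1.01, 0.85 to 1.18). Of 7 co-receptors and decoys counted, 2 were called higher and 1 lower, with a median of -0.05, close to the -0.04 of all genes. Il1rl2 was the 1 gene counted of 12 other IL-1 and Toll-like receptors (log2 0.52, an interval that included 0).

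Of the other TNF receptor family, 7 of 15 counted genes were called higher and 0 lower, with a median of 0.44. They included Tnfrsf12a, the receptor for the cytokine TWEAK (17.9 and 33.7 CPM, log2 0.91, 0.78 to 1.05), Tnfrsf19 (0.416 and 0.977 CPM, log2 1.23, 0.34 to 2.201), Tnfrsf4 (0.471 and 0.874 CPM, log2 0.89, 0.01 to 1.82) and Tnfrsf21 (1.47 and 2.42 CPM, log2 0.72, 0.22 to 1.23). The other class II cytokine receptors had 2 of 7 genes counted and none called, among them Il10rb, the neighbour of Ifnar1 and Ifnar2, at 81.2 and 84.6 CPM.

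Downstream, TIR adaptors and kinases stayed near the level of all genes, with 2 of 18 called higher, 0 lower and a median of 0.02. The 2 were Myd88, the adaptor of interleukin-1 and most Toll-like receptors (12.4 and 23.2 CPM, log2 0.90, 0.73 to 1.07), and Ticam1, the adaptor of TLR3 (3.88 and 6.37 CPM, log2 0.72, 0.41 to 1.03). Of the TNF receptor complex and cell death list, 4 of 19 were called higher, with a median of 0.15. Timp3, an inhibitor of the protease that sheds TNF receptors, stood at 156 and 314 CPM (log2 1.01, 0.96 to 1.05), and Rhbdf2, a partner of that protease, stood at 25.6 and 39.2 CPM (log2 0.61, 0.49 to 0.73). Ripk3 and Birc3 were the others, at log2 0.71 and 0.57. Adam17, the protease itself, stood at 63.1 and 62.9 CPM.

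Of the interferon receptor kinases and STATs, 4 of 11 were called higher with a median of 0.31: Socs1, a feedback inhibitor (3.91 and 8.07 CPM, log2 1.05, 0.76 to 1.34), Jak2 (58.9 and 91.7 CPM, log2 0.64), Stat3 (167 and 257 CPM, log2 0.62) and Ptpn2 (41.2 and 60.9 CPM, log2 0.57). Tyk2, the kinase bound to IFNAR1, was lower without reaching 0.5, at 28.5 and 20.97 CPM (log2 -0.44, -0.58 to -0.31). Thus RNA of a kinase of the interferon gamma receptor, Jak2, was called higher. RNA of Ifnar1 and Tyk2 lay below control without reaching the size limit. Without the Lalba cluster the Ifnar1 log2 ratio was -0.12 (-0.21 to -0.04).

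Of the NF-kB targets, 8 of 10 counted were called higher and 1 lower, with a median of 2.03. The lower one was the growth factor gene Csf1, at 131 and 87.7 CPM (log2 -0.58). Selp stood at 0.222 and 12.3 CPM (log2 5.79, 4.80 to 7.01), Sele at 0.499 and 6.89 CPM (log2 3.79, 3.10 to 4.56), Vcam1 at 2.13 and 22.8 CPM (log2 3.42, 3.08 to 3.77) and Cxcl10 at 2.13 and 21.5 CPM (log2 3.33, 2.99 to 3.69). The first of these are adhesion molecules for leukocytes and the last a chemokine. Of the IKK and NF-kB feedback list, 8 of 12 were called higher with a median of 0.55, led by Nfkbiz (7.29 and 32.6 CPM, log2 2.16, 1.97 to 2.36) and Nfkbie (log2 1.34), with Tnfaip3 at 0.86 and Nfkbib at 0.57.

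Interferon gamma targets were higher in 12 of 18, with none lower and a median of 0.68. Irf8 stood at 1.08 and 7.99 CPM (log2 2.89, 2.40 to 3.41), Cxcl9 at 1.08 and 4.55 CPM (log2 2.07, 1.57 to 2.61) and Igtp, an immunity-related GTPase, at 47.8 and 95.1 CPM (log2 0.99, 0.91 to 1.08). Socs1 is on this list as well. Type I interferon targets were called higher in 2 of 12 counted, against 9.04% of all genes. They were Isg15 (126 and 190 CPM, log2 0.60, 0.54 to 0.65) and Oas1a (4.96 and 7.45 CPM, log2 0.59, 0.31 to 0.86). The median of the list was 0.26. Of the 14 listed, 12 were analysed. Genes of these target lists overlap in their known regulation, and the part of other cell types' RNA in these counts was not tested.

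**Figure D5:**
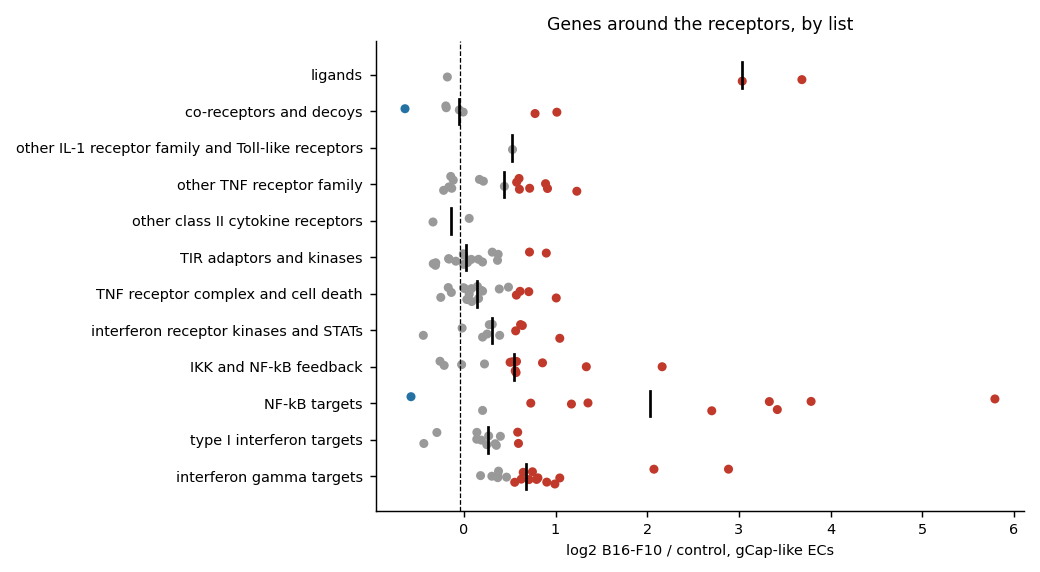
Log2 ratio of B16-F10 over control in gCap-like ECs (horizontal axis) for each counted gene of 12 lists (rows, points spread vertically for legibility). Red is called higher, blue lower and grey neither, black bars are list medians and the dashed line is the median of all genes (-0.04). NF-kB targets have a median of 2.03, and TIR adaptors and kinases one of 0.02.

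The genes most like each receptor in level were sought over the 10 sums of 5 classes and 2 libraries, among 9152 genes with at least 1000 UMIs in ECs, with Pearson's r of log2(CPM + 1). These sums share libraries and dissociation, and r is only a description. For Il1r1 they were Klf2 (0.98) and mt-Cytb (0.96), for Tnfrsf1a Prpf19 (0.98) and the immunoproteasome gene Psmb8 (0.98), and for Tlr3 Spef1 (0.95) and Egfl7 (0.92). For Tlr4 they were Hspa1a (0.92) and Lamc3 (0.92), for Ifngr1 Cdk11b (0.92) and Pxdc1 (0.92), for Ifngr2 Dnm2 (0.98) and Hmgn2 (0.97), for Ifnar1 Smim15 (0.91) and Ing1 (0.89), and for Ifnar2 Adamts1 (0.97) and Nfix (0.95). Tnfrsf1b and Tlr2 had 414 and 609 UMIs in ECs and were not searched.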

How the data were processed

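Single-cell RNA sequencing of 2 libraries was analysed, 1 per group, in which cells of the mice of a treatment were pooled. The authors deposited raw UMI counts per gene and barcode for all barcodes, with no normalization. The file headers and the submitters' processing notes name Cell Ranger 7.2.0, and the build is mm10 (GRCm38). The study's methods name an earlier version, and whether intronic reads were counted is not given in the sources used here, which matters for long genes such as Tlr4. The methods also give another number of mice per sample than the labels.

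Limits on cells were 1000 to 5000 detected genes, with less than 20% of UMIs mitochondrial. Doublets were called with Scrublet in scanpy 1.11.5 at 0.8% per 1000 cells (564 control and 554 B16-F10 cells, 6.72% and 6.66%). Cells were clustered with leidenalg 0.10.2 (resolution 0.8, 30 principal components, 20 neighbours) on 2924 variable genes that left out the receptors and response genes, and named from 8 markers per class. Mixed clusters (733 and 1259 cells) were kept out of the ECs. UMIs were summed per class and library, expressed per 1000000 UMIs (CPM) with exact Poisson intervals, and compared as log2 ratios with exact conditional binomial intervals (scipy 1.17.1). Intervals of differences between log2 ratios are normal approximations on the counts. All cover counting error only. Free RNA was taken from barcodes with 1 to 100 UMIs. The code was tested on simulated counts. Of the pathway lists, up to 4 called genes with the largest absolute ratios in gCap-like ECs were named, and for each receptor with at least 1000 UMIs the 2 genes most correlated in level. Uncalled partners, kinases, ligands and other list genes named beside them, and Csf1, were chosen after their values were seen. The receptors and lists were chosen with earlier results of these data known. Alternatives changed cell limits, doublets, clustering, scaling, depth, free RNA and the cells included.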

Additional observations from a re-analysis of the deposited data

Results flagged for a closer look

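In 2 interferon receptor chains the log2 ratio of B16-F10 over control lay above 0 in some vessel classes and below 0 in LEC-like ECs, with intervals that excluded 0. Ifngr1 was at 0.077 in gCap-like, 0.39 in aCap-like and 0.34 in vein-like ECs and at -0.52 in LEC-like ECs. For Ifnar2 the values were 0.14 (gCap-like), 0.30 (aCap-like), 0.39 (artery-like), 0.37 (vein-like) and -0.50 (LEC-like). The difference between classes was not tested, since each group is 1 library. With counting intervals only, the LEC-like log2 ratio less the gCap-like one was -0.59 (-1.04 to -0.14) for Ifngr1. For Ifnar2 it was -0.64 (-1.05 to -0.23). The LEC-like values rest on 57 and 51 cells. Their intervals included 0 under 3 alternatives for Ifngr1 and under 4 for Ifnar2. Those for Ifngr1 were doublets kept, thinned cells, and cells without macrophage/monocyte, neutrophil, platelet, mural or melanoma markers. For Ifnar2 they were these and no upper limit of genes.

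Barcodes with 1 to 100 UMIs, which are near-empty droplets and served otherwise only to estimate free RNA, also carried more of 5 receptors in the B16-F10 library. The log2 ratios were 0.60 for Il1r1 (25.04 and 37.9 CPM), 0.47 for Tnfrsf1a (241 and 333 CPM), 1.36 for Tnfrsf1b (3.17 and 8.16 CPM), 0.87 for Tlr2 (4.94 and 9.03 CPM) and 0.27 for Ifnar2 (147 and 178 CPM). Tlr4 was lower there, at 25.6 and 14.9 CPM.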

How the results depend on the processing

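No paired analysis was possible because there was a single library per treatment. No called receptor changed direction under any alternative, and 432 of 478 alternative values stayed within the main interval or, for counts of genes, within 1.5 times the main count. In gCap-like ECs the exceptions follow, as log2 ratios. Without the cluster led by Lalba and Adamts9, an alternative chosen after seeing the data, Il1r1 was at 0.67, Tnfrsf1a 0.47, Ifngr1 0.18, Ifngr2 -0.11 and Ifnar1 -0.12, and genes called lower fell from 1539 to 1011. Without clusters of which over 75% of cells came from 1 library, also added later, Il1r1 was at 0.68, Tnfrsf1a 0.51, Ifngr1 0.20, Ifngr2 -0.088, Ifnar1 -0.095 and Ifnar2 0.21. Without cells holding a macrophage/monocyte, neutrophil, platelet, mural or melanoma marker UMI, Tnfrsf1a was at 0.74 and Tlr4 at -1.23. Scaling by the median ratio gave 0.72 for Tnfrsf1a, and thinning gave 1.35 for Tnfrsf1b, 1.81 for Tlr2 and 0.095 for Ifnar2. All ECs summed gave 0.63 for Tnfrsf1a, -0.19 for Tlr3 and 0.19 for Ifnar2. A size limit of 1 left 415 genes higher and 356 lower, against 1196 and 1539. In other classes, Il1r1 in artery-like ECs (0.48) passed the limit under 6 alternatives (0.54 to 0.69), and thinning took the calls of Tlr2 in aCap-like and vein-like and of Tlr4 in artery-like and vein-like ECs within counting error. The limit of 10% mitochondrial UMIs left no vein-like class and gave no value there. With 1 library per group, mouse, injection and capture cannot be told apart from treatment, and depth limits Tnfrsf1b, Tlr2 and the LEC-like values.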

Other observations

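Some leukocytes remained after the sort, and their receptor levels are given here. In T/NK-like cells of the B16-F10 library, 29 in number, Ifngr1 stood at 793 CPM from 200 UMIs and Tlr2 at 3.96 CPM from 1 UMI. In macrophage/monocyte-like cells of that library Ifngr1 stood at 619 CPM from 347 UMIs and Tlr4 at 67.8 CPM from 38 UMIs. Il1r1 had 1 UMI in those macrophage/monocyte-like cells, 1 in the 19 neutrophil-like cells and 0 in the 38 B-like cells. The T/NK-like cells had 17 Il1r1 UMIs (67.4 CPM), all held by 13.8% of the 29 cells.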
